A study of Homo sapiens with 9 samples.

Results

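The 10 genes described here are the transcription factors GATA2 and GATA1, the eosinophil granule genes PRG2, PRG3, EPX and CLC, the basophil and mast cell genes HDC, CPA3 and FCER1A, and MS4A3, a gene of granulocyte and monocyte progenitors. They were taken by symbol from the 57820 named genes of the count table, and each symbol was found there once. GATA2, PRG2 and EPX had been seen to rise after RBM5 knockout, and these 3 were chosen by that rise, so that for all 10 genes the comparison of RBM5 KO with CTRL is given as a description, with no test. RNA-seq was done on MOLM13, a human acute myeloid leukemia line with a rearranged KMT2A (MLL) gene, in 3 groups of 3 libraries. CTRL cells stably expressed Cas9 and received a non-targeting sgRNA, RBM5 KO cells stably expressed Cas9 and received the sgRNA RBM5-sg1, and RBM5 OE cells were transduced with a lentiviral RBM5-P2A-Venus cDNA. No other treatment is given. RBM5 KO was a bulk transduced culture made with a single guide, not a clone, and RBM5 OE was compared with the non-targeting sgRNA cells, not with an empty vector. The replicates are called biological in the labels, without saying whether cultures were transduced separately, and the libraries' labels give no day of harvest.

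GATA2 is a zinc finger factor of blood stem and progenitor cells that binds the letters GATA in DNA, and it takes part in the formation of mast cells, basophils, eosinophils and early megakaryocytes. GATA1 is its relative in erythroid cells, megakaryocytes and eosinophils. Eosinophils store cationic proteins in their granules, among them major basic protein from PRG2, its homolog from PRG3, and a peroxidase from EPX, while CLC makes galectin-10, the protein of Charcot-Leyden crystals. Basophils and mast cells make histamine with HDC, bind IgE through a receptor whose alpha chain is FCER1A, and mast cells store the protease of CPA3.

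The guide that defines RBM5 KO is shown because the whole group rests on it. Its last 19 bases matched RBM5 at chr3:50143047-50143065 of GRCh37, the build of the files, on the minus strand within coding exon 10 of the annotated main transcript. The lower-case letters are the guide and the capitals are the PAM read from the genome.
RBM5-sg1 site: tgacagctaaagacgcgtaAGG
In CPM (counts scaled to library size after TMM normalization), RBM5 was 122, 117 and 113 in CTRL, 70.5, 73.9 and 79.4 in RBM5 KO, and 379.8, 414 and 416 in RBM5 OE. The mRNA fell by 0.65 (standard error 0.08, log2 scale) in RBM5 KO with an adjusted p of 0.00692 and rose by 1.78 (0.07) in RBM5 OE with an adjusted p of 4.11e-08, both by edgeR's quasi-likelihood test. The first call ended without CTRL replicate 1 and with limma on log2(TPM + 1), at an adjusted p of up to 0.0606. Reads of the cDNA and of the cells' own gene were counted together in RBM5 OE.

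The depth was 25522952 to 27871988 expected counts per library, which puts 3 counts at 0.108 to 0.118 CPM. Of the 10 genes, 4 passed the filter on low counts in both comparisons (GATA2, PRG2, EPX and MS4A3) and 6 did not. All 5 markers of the line were tested, with CD33 at 117 CPM and FLT3 at 485 CPM in CTRL. FLT3 fell by 0.6 on the log2 scale in RBM5 KO (adjusted p = 0.017 by edgeR, kept in 10 of 15 alternative settings). In RBM5 OE CD33 fell by 0.33 (0.00257, kept in all 14). HOXA9 rose there by 0.31 (0.023, kept in 11 of 14) and SPI1 by 0.19 (0.0463, kept in 6 of 14). Of 14 erythroid markers 7, globin genes and glycophorins among them, were at 0 in all 9 libraries, and so were 4 of 12 megakaryocyte markers. CTRL replicate 3 and RBM5 KO replicate 1 stood apart from the other libraries of their groups. Over all genes their chi-square per degree of freedom was 16.8 and 22.8 in CTRL and 34.9 and 40.9 in RBM5 KO, against 9.19 and 10.0 for the other pairs of these groups, where sampling noise alone gives about 1. Without both, 6.94% of genes were called higher and 6.68% lower in RBM5 KO by edgeR at an adjusted p under 0.05, and calls of list genes in that fit of 4 libraries are given beside those of all 6. Libraries are bulk RNA, so fewer cells that express a gene and less RNA per cell cannot be told apart.

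Levels of different genes were compared as TPM (transcripts scaled to a fixed total per library), which account for length. In CTRL, PRG2 was at 132 ± 35.3 TPM (SD, n = 3), MS4A3 at 45.0 ± 6.41, GATA2 at 34.2 ± 4.07 and EPX at 0.753 ± 0.212. The library ranges of these neighbours did not overlap, with MS4A3 at 40.1 to 52.3 and GATA2 at 29.6 to 37.2. The mRNA of major basic protein was thus the most abundant of the 10 in the control line, and that of the peroxidase was the least abundant of the 4 that passed the filter. In RBM5 KO MS4A3 (39.5 to 68.8 TPM) and GATA2 (66.5 to 91.1) overlapped, while PRG2 stood at 484 ± 70.1 and EPX at 3.84 ± 0.988. In RBM5 OE the order was that of CTRL, with PRG2 at 161 ± 4.98, MS4A3 at 54.8 ± 4.65, GATA2 at 25.5 ± 1.71 and EPX at 1.29 ± 0.131 TPM.

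**Figure D1:**
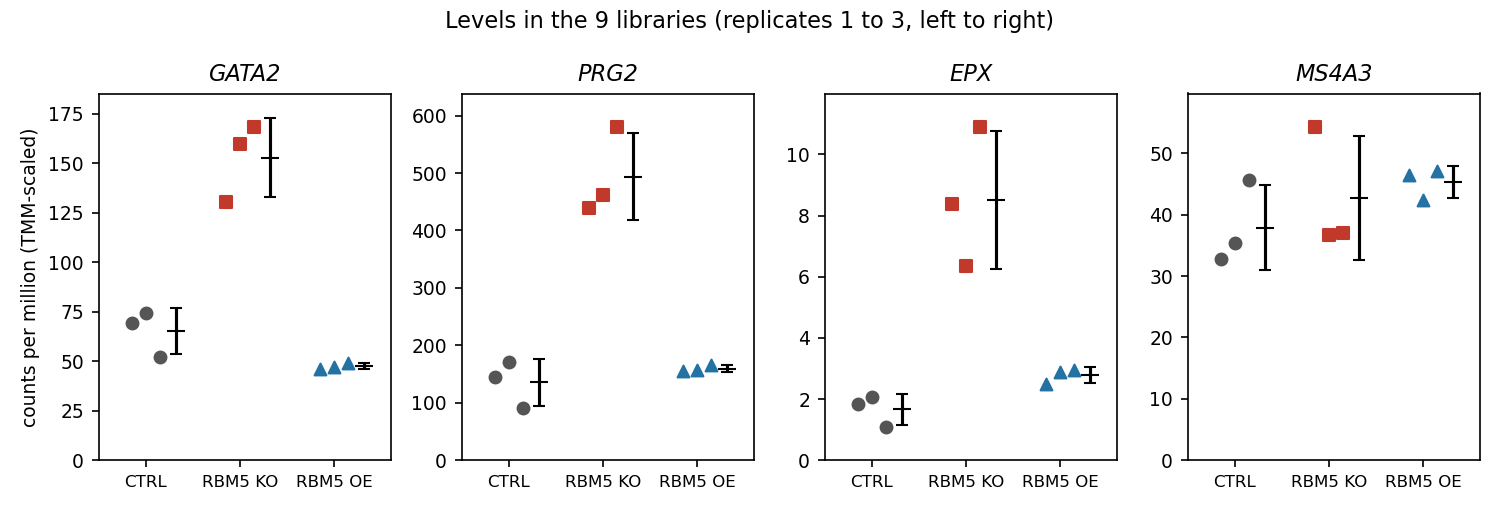
TMM-scaled CPM (linear axes from 0) of GATA2, PRG2, EPX and MS4A3 in each of the 9 libraries, with the mean and SD of each group beside its points. In RBM5 KO all 3 libraries lie above all CTRL libraries for GATA2, PRG2 and EPX, in RBM5 OE the GATA2 points lie below CTRL (45.9 to 49.1 against 52.3 to 74.6 CPM), and CTRL replicate 3 is the lowest CTRL point for GATA2, PRG2 and EPX and the highest for MS4A3.

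GATA2 (ENSG00000179348.7) lies at chr3:128198270-128212044 of GRCh37 on the minus strand. Its level was 69.3, 74.6 and 52.3 CPM in CTRL, 130.2, 159.5 and 168 CPM in RBM5 KO, and 45.9, 47.2 and 49.1 CPM in RBM5 OE. Each RBM5 KO library was thus above, and each RBM5 OE library below, the whole CTRL range. In RBM5 KO the log2 fold change was 1.22 (standard error 0.15), a 2.33-fold higher level and number 160 among the 14218 genes of that fit ordered from the largest rise. In RBM5 OE, GATA2 fell by 0.46 (0.11) on the log2 scale, to 0.726 of CTRL, at an adjusted p of 0.00665 by edgeR's quasi-likelihood test over 14370 genes. The call held in all 14 alternative settings, at adjusted p of 7.77e-07 to 0.031 and log2 fold changes of -0.60 to -0.36. In the same comparison 20.2% of all tested genes were called lower, and 25.5% had RBM5 OE libraries entirely below CTRL. The CTRL libraries are the same in both comparisons, so that the values of RBM5 KO and RBM5 OE are not independent of each other.

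The promoters of the 10 genes, as windows of 250 bases before and 50 after the start in RefSeq on GRCh38.p14, were found for 8 of them, without PRG2 and EPX. GATA2 has a pair of starts in that table, which are shown because GATA2 is the factor among the members that was expressed, and PRG3 and MS4A3 are shown as examples of a window with a match, picked with the matches known. Capitals mark a 6-letter motif on either strand, made of A or T, then GATA, then A or G, and no matches overlap each other here.
GATA2, upstream start, chr3:128493152-128493451, minus strand: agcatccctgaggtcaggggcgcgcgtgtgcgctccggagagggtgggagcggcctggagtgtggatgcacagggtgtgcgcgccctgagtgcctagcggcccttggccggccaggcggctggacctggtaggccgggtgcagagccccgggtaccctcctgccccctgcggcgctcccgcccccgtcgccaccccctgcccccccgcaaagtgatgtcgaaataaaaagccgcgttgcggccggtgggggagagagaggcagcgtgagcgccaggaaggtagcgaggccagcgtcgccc
GATA2, downstream start, chr3:128488481-128488780, minus strand: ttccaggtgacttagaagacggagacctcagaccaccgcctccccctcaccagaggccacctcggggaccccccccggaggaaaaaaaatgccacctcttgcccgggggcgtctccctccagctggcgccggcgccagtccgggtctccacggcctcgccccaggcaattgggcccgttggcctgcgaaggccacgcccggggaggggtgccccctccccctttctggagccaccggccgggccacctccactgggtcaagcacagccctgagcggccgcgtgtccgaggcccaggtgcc
PRG3, chr11:57381101-57381400, minus strand: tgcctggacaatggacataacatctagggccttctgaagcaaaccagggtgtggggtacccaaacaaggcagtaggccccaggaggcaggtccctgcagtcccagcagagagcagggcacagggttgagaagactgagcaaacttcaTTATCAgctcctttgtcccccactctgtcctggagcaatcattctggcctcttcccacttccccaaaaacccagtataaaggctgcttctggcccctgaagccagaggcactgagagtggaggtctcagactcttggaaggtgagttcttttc
MS4A3, chr11:60056415-60056714, plus strand: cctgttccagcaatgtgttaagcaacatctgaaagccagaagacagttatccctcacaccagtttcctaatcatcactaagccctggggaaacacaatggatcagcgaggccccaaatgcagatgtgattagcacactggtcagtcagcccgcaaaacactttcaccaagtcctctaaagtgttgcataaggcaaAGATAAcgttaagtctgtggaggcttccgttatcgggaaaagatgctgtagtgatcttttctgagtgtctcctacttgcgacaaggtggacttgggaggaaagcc
Neither GATA2 window held one of these motifs, and both were rich in G and C (72.3% and 71.3%, against a median of 58.7% over all windows). PRG3 held TGATAA on the strand opposite to the printed one, so that its capitals read TTATCA, starting 103 bases before the start site. MS4A3 held AGATAA on the printed strand, 55 bases before its start site. CLC and CPA3 held 2 matches each, FCER1A 1, and GATA1 and HDC none. Among all 35116 windows of this length 25.0% held at least 1 match, and 6.08% held 2 or more. A match describes letters in the window and no binding was measured.

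PRG2 (ENSG00000186652.5) lies at chr11:57154253-57158123 on the minus strand. It was measured at 145.5, 170.1 and 90.5 CPM in CTRL, 439.6, 461 and 580.4 CPM in RBM5 KO, and 155, 158 and 166 CPM in RBM5 OE. The lowest RBM5 KO library was far above the highest CTRL library, whereas the RBM5 OE libraries lay inside the CTRL range. The log2 fold change in RBM5 KO was 1.87 (0.21), which is 3.65-fold and number 45 of all genes. In RBM5 OE it was 0.24 (0.17), with an adjusted p of 0.275 by edgeR. Without CTRL replicate 3, the lowest CTRL library, the value in RBM5 OE was 0.01 with an adjusted p of 0.899, and without the filter on low counts its adjusted p was 0.0122.

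EPX (ENSG00000121053.5) lies at chr17:56270087-56282535 on the plus strand. It was read at 1.84, 2.07 and 1.1 CPM in CTRL (47, 53 and 29 counts), at 8.37, 6.34 and 10.9 CPM in RBM5 KO (229, 172 and 295 counts), and at 2.49, 2.89 and 2.96 CPM in RBM5 OE (68, 82 and 78 counts). Both groups were entirely above CTRL. The log2 fold change was 2.35 (0.29) in RBM5 KO, 5.10-fold and number 15 of all genes. In RBM5 OE it was 0.74 (0.27), 1.67-fold, with an adjusted p of 0.044 by edgeR, in a comparison where 19.8% of genes were called higher and 26.1% had RBM5 OE libraries entirely above CTRL. This call was kept in 6 of 14 alternative settings and ended with all 9 libraries in 1 fit (adjusted p of 0.0535), on log2(TPM + 1) with limma (0.0551), with the replicate block (0.0594), without CTRL replicate 1 (0.0739) or 3 (0.113), and without RBM5 OE replicate 1 (0.075), 2 (0.124) or 3 (0.121). The value was 0.50 without CTRL replicate 3 and 0.39 on the TPM scale, which compresses low levels. EPX was chosen by its rise over these same CTRL libraries, and such a choice favours low CTRL values. That raises the value in RBM5 OE as well, so the call is no independent sign of a rise.

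MS4A3 (ENSG00000149516.9, chr11:59824060-59838588, plus strand) encodes a membrane protein of the family that also holds the IgE receptor beta chain and CD20. Its level was 32.7, 35.3 and 45.7 CPM in CTRL, 54.3, 36.7 and 37 CPM in RBM5 KO and 46.5, 42.3 and 47.1 CPM in RBM5 OE. All 3 groups overlapped, and the highest CTRL and the highest RBM5 KO library were those that stood apart. The log2 fold change was 0.17 (0.18) in RBM5 KO and -0.04 without RBM5 KO replicate 1. In RBM5 OE it was 0.26 (0.11) with an adjusted p of 0.095 by edgeR, and 0.41 with an adjusted p of 0.000694 without CTRL replicate 3.

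**Figure D2:**
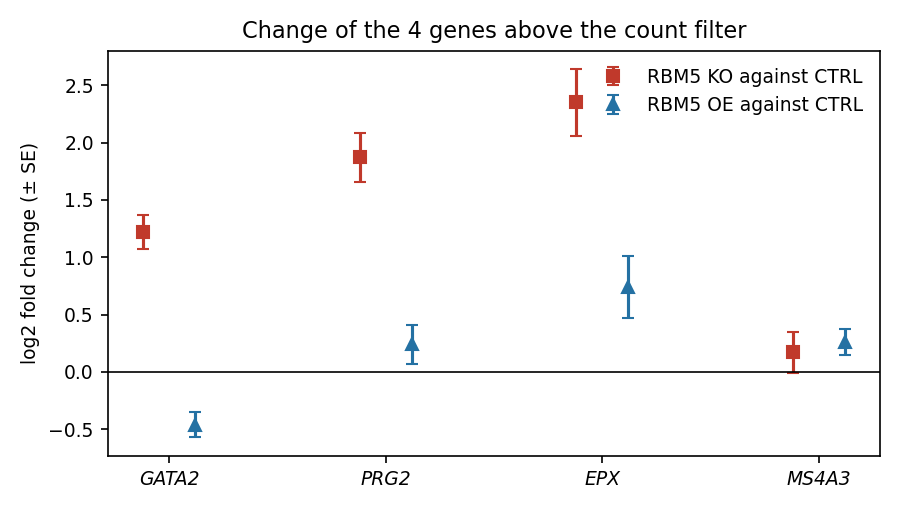
Log2 fold change against CTRL (vertical axis) with its standard error for the 4 genes above the count filter, as squares for RBM5 KO and triangles for RBM5 OE. GATA2 stands at 1.22 and -0.46, PRG2 at 1.87 and 0.24, EPX at 2.35 and 0.74, and MS4A3 at 0.17 and 0.26.

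Read over these 4 genes, 1 fell (GATA2) and 1 rose (EPX) in RBM5 OE, and PRG2 and MS4A3 did not pass the test, where 20.2% of all genes were called lower and 19.8% higher, so that these counts are near the background. In RBM5 KO the libraries lay entirely above CTRL for 3 of the 4 (over all genes, 11.2% above and 11.7% below), and since these 3 were chosen by their rise, nothing is read from that count. The median log2 fold change of all genes was 0.01 in both comparisons. GATA2 was the member whose log2 fold changes had opposite signs against the shared CTRL libraries, and PRG2 and EPX had positive values in both. A choice by a rise over the shared CTRL libraries favours positive values in RBM5 OE as well, so nothing is read from the shared sign of PRG2 and EPX.

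The 6 remaining genes had few counts or none and did not pass the filter, so they are given as counts. PRG3, which lies 5.6 kb from PRG2 on the same strand, had 1, 1 and 2 counts in CTRL, 7, 7 and 6 in RBM5 KO and 3, 1 and 3 in RBM5 OE. Its summed count scaled by depth in RBM5 KO was 4.73 times that of CTRL, and the ratio for RBM5 OE was 1.70, with an exact 95% interval of 0.432 to 7.92 that covers counting error only. In TPM the PRG3 level in RBM5 KO was 0.453 ± 0.0503, against 484 for PRG2. No stretch of 31 bases is shared between the annotated transcripts of PRG3 and PRG2, so PRG2 reads of that length cannot match PRG3 exactly.

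HDC had 4, 0 and 3 counts in CTRL, 2, 0 and 2 in RBM5 KO and 1, 0 and 5 in RBM5 OE. FCER1A had 0, 0 and 3 counts in CTRL, 1, 3 and 3 in RBM5 KO and 1, 1 and 0 in RBM5 OE. In both genes the groups overlapped. CLC had no count in CTRL, 2 counts over RBM5 KO and 1 over RBM5 OE, and GATA1 had none in CTRL and 1 in each of the other groups. CPA3 had no count in any library. In the shallowest library 3 counts are 0.118 CPM, so that a count of 0 in 1 library leaves room for a level up to about that. Lower levels were at times read as a single count, such as PRG3 at 0.039 CPM in CTRL replicate 2.

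**Figure D3:**
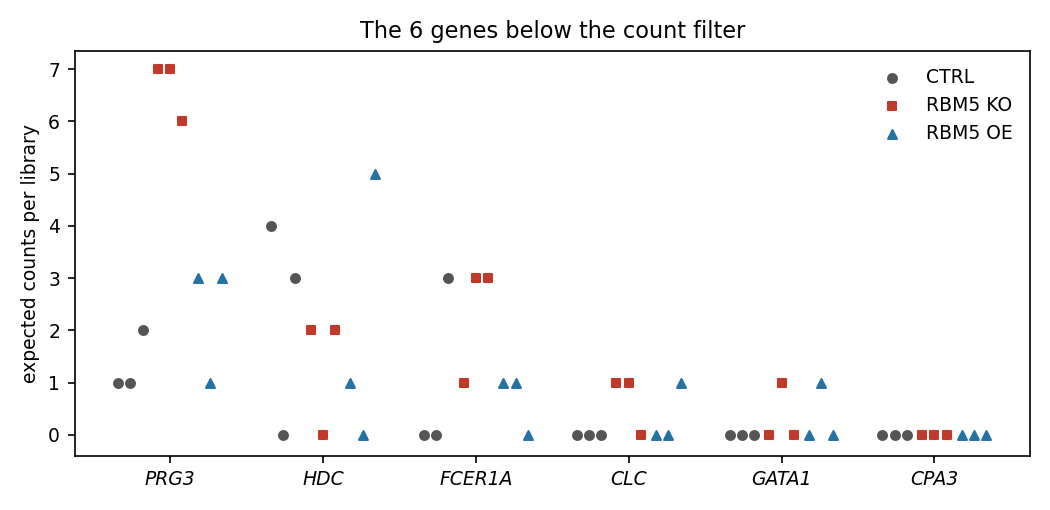
Expected counts per library (linear vertical axis) of the 6 genes below the count filter, by group and with the 3 replicates side by side. Only PRG3 has a group in which all 3 libraries exceed all CTRL libraries (RBM5 KO, 6 or 7 counts against 1 or 2), and CPA3 is at 0 throughout.

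The members also varied within groups. In CTRL replicate 3, GATA2 was 0.46 lower, PRG2 0.80 lower and EPX 0.79 lower than the mean of the other CTRL libraries on the log2 CPM scale, and MS4A3 was 0.43 higher. In RBM5 KO replicate 1, GATA2 was 0.33 lower and PRG2 0.23 lower than the others of the group, EPX differed by 0.01, and MS4A3 was 0.56 higher. GATA2 and PRG2 were thus the lowest of the group in both libraries, as were 21.1% of all tested genes, and MS4A3 was the highest in both, as were 20.1%. Without any 1 library of the comparison, or without both of these, the log2 fold change in RBM5 KO was 1.08 to 1.32 for GATA2, 1.64 to 2.06 for PRG2 and 2.12 to 2.53 for EPX. The RBM5 OE libraries were close together, with coefficients of variation of 3.32% for GATA2, 3.45% for PRG2, 9.18% for EPX and 5.78% for MS4A3, against 17.8%, 30.1%, 30.5% and 18.2% in CTRL.

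Over the 9 libraries, Pearson's r of log2 CPM was 0.975 between PRG2 and EPX, 0.919 between GATA2 and PRG2 and 0.822 between GATA2 and EPX. With MS4A3 these genes gave -0.239 to 0.092. The 9 points share 3 groups. GATA2, PRG2 and EPX were also chosen by their rise in the same RBM5 KO libraries, which favours high values among them. These values thus describe the pattern and are not a test. Of the 11630 genes whose log2 CPM averaged 1 or more, the non-members most like GATA2 were VCAN, a matrix proteoglycan of monocytes (r = 0.988), MDM2, the ubiquitin ligase of p53 (0.981), the zinc finger gene ZNF438 (0.979), the annexin ANXA8 (0.978) and TP73, a gene of the p53 family (0.978). VCAN averaged 4.33 CPM in CTRL, 24.3 in the knockout and 1.35 in overexpression, and MDM2 averaged 90.8, 145 and 70.5 CPM. All 5 were high in RBM5 KO and low in RBM5 OE on average.

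The genes most like PRG2 were ANXA1, an annexin of granulocytes and macrophages (r = 0.979), CHPT1, an enzyme of phosphatidylcholine synthesis (0.967), the protease gene PRSS12 (0.96), C1orf186 (0.954) and the fatty acid desaturase FADS1 (0.951). ANXA1 was at 15.4 CPM in CTRL, 38.9 in RBM5 KO against 16 in RBM5 OE, and FADS1 at 73.7, 96.7 and 73.8. Those most like EPX were TMTC2 (0.932), CHPT1 (0.921), ANXA1 (0.921), NUTM2D (0.909) and the factor FOXA1 (0.908). CHPT1 and ANXA1 stood in both lists, and neither list shared a gene with that of GATA2.

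Genes within 100 kb of the members were read as well. The antisense gene RP11-475N22.4 (GATA2-AS1) overlaps GATA2, and without strand in the counting the reads of the pair cannot be told apart where they overlap. It was at 24.3 CPM in CTRL, 29.3 in RBM5 KO against 22.7 in RBM5 OE, with log2 fold changes of 0.27 (adjusted p = 0.239, edgeR) and -0.09 (adjusted p = 0.425). EEFSEC, a translation factor gene 70.8 kb away, fell by 0.41 in RBM5 OE (adjusted p = 0.00329 by edgeR) and had a value of -0.29 in RBM5 KO (adjusted p = 0.207). The other annotated neighbours of GATA2 with a row in the table had at most 20 counts over all 9 libraries.

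A readthrough gene on the same strand, RP11-872D17.8, overlaps PRG2. It was at 13.3 CPM in CTRL, 19.9 in RBM5 KO against 16.3 in RBM5 OE, a log2 fold change of 0.58 (adjusted p = 0.399 by edgeR) and 0.29 (adjusted p = 0.242), was called in RBM5 KO without both libraries that stood apart (0.00251) and in RBM5 OE without CTRL replicate 3 (0.000878), and the division of reads between this gene and PRG2 was an estimate of RSEM. Of the 5 other tested genes around PRG2, SLC43A1, a carrier of large neutral amino acids, fell by 0.55 in RBM5 KO (adjusted p = 0.0287, and up to 0.156 over alternatives). RTN4RL2 fell by 0.59 in RBM5 OE (adjusted p = 0.00296 by edgeR), and TNKS1BP1 had a value of -0.65 in RBM5 KO (adjusted p = 0.0512) that was called in 7 of 15 alternatives. SSRP1 was at -0.04 in RBM5 KO (adjusted p = 0.936 by edgeR) and 0.07 in RBM5 OE (0.412). SLC43A3 was at 0.16 (0.528) and -0.18 (0.065), the latter called in 2 of 14 alternatives.

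An antisense lncRNA gene, ENSG00000278627, overlaps EPX and was not among the genes counted. Without strand in the counting, any reads of it cannot be told from EPX reads where the genes overlap. EPX lies in a cluster with the genes of 2 other heme peroxidases. LPO, lactoperoxidase, begins 13.4 kb away and was at 8.37 ± 0.593 CPM in CTRL, 3.11 ± 0.645 in RBM5 KO against 12.1 ± 0.792 in RBM5 OE (SD, n = 3). It fell by 1.43 (0.19) in RBM5 KO with an adjusted p of 0.00706 and rose by 0.53 (0.12) in RBM5 OE with an adjusted p of 0.00367, both by edgeR. Its fall in RBM5 KO was in the direction opposite to the value of EPX, and the call ended without CTRL replicate 1 or 2, at an adjusted p of up to 0.0576. MPO, the myeloperoxidase of azurophil granules, lies 64.7 kb away and had log2 fold changes of 0.43 (adjusted p = 0.142) and -0.19 (adjusted p = 0.221). EPX shared 0.93% of its 31-base stretches with MPO and none with LPO. DYNLL2, a dynein light chain gene, fell by 0.42 in RBM5 OE (adjusted p = 0.00192 by edgeR). MKS1, the nearest tested gene at 0.3 kb from EPX, was at -0.23 in RBM5 KO (adjusted p = 0.474 by edgeR) and 0.21 in RBM5 OE (0.076). BZRAP1, 96.1 kb away, was at 0.09 in both (0.839 and 0.516). Over alternatives, MKS1 was called in 2 of 15 in RBM5 KO and BZRAP1 in 1 of 14 in RBM5 OE.

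**Figure D4:**
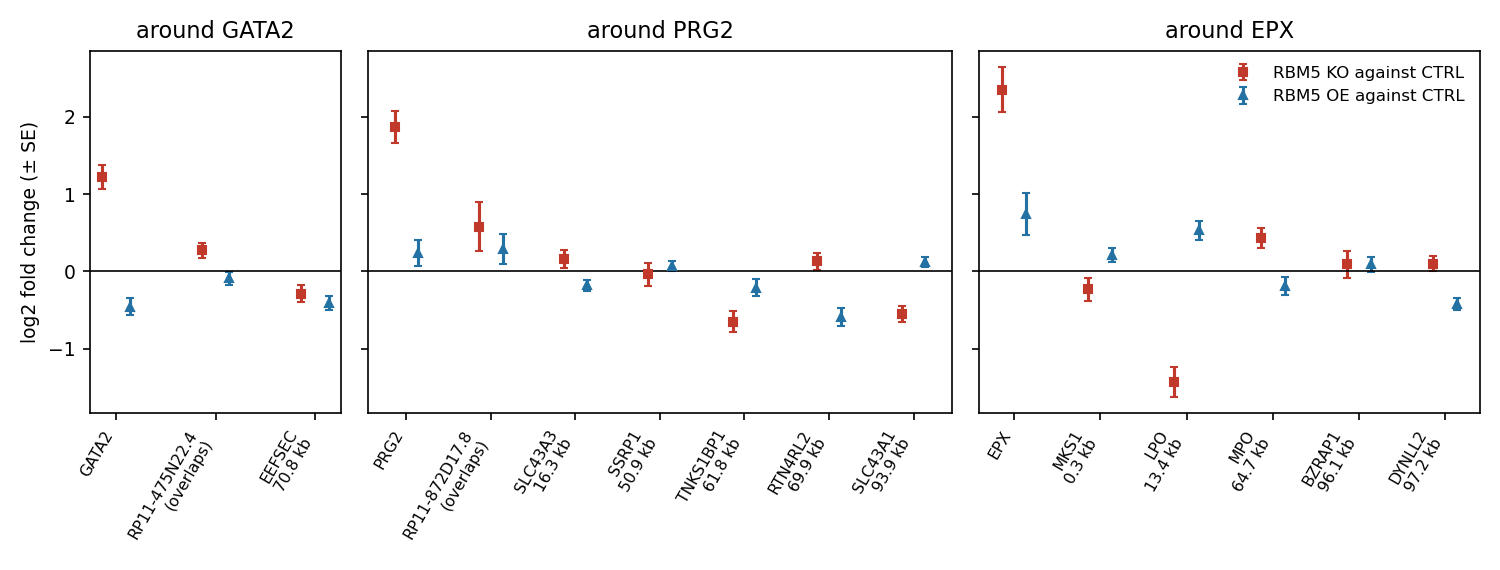
Log2 fold change against CTRL with its standard error for GATA2, PRG2 and EPX and for the tested genes within 100 kb of each, ordered by distance in kb, as squares for RBM5 KO and triangles for RBM5 OE. LPO, 13.4 kb from EPX, is at -1.43 in RBM5 KO and 0.53 in RBM5 OE, and EEFSEC, 70.8 kb from GATA2, is at -0.29 and -0.41.

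Genes that work with the members were read from lists. In RBM5 KO 0.837% of all tested genes were called higher and 1.67% lower, by edgeR at an adjusted p under 0.05, and in RBM5 OE 19.8% higher and 20.2% lower. A count of list genes near these shares is no result about the list. Of 6 partner factors of GATA2, 4 were tested, and TAL1 and ERG had at most 2 counts in a group. In RBM5 OE, LYL1, a helix-loop-helix factor, rose by 0.54 (adjusted p = 0.000153 by edgeR), RUNX1 rose by 0.25 (0.0239) and LMO2, the adaptor between GATA and helix-loop-helix factors, fell by 0.36 (0.00603), with a list median of 0.18. The call of RUNX1 ended without CTRL replicate 3 and without each of the RBM5 OE libraries, at an adjusted p of up to 0.0966. In RBM5 KO edgeR called 0 of these 4, with 1 at an unadjusted p under 0.05 (LYL1, -0.38, adjusted p = 0.0628), which was called by DESeq2 and without both libraries that stood apart, and not by limma-voom. Of the GATA and FOG genes apart from GATA1 and GATA2, only ZFPM1, the cofactor FOG1, was tested, and its log2 fold changes were 0.05 in RBM5 KO and 0.04 in RBM5 OE. GATA4, GATA5 and GATA6 were at 0 and GATA3 had 3 counts in CTRL and none in the other groups.

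Among 10 other eosinophil genes, 6 were tested in RBM5 KO and 5 in RBM5 OE. In RBM5 OE, 3 of 5 fell and 1 rose, where 20.2% of all genes were called lower and 19.8% higher. RNASE2, the eosinophil-derived neurotoxin, fell by 0.87 (adjusted p = 1.12e-05 by edgeR) from 366 to 200.0 CPM, RNASE3, the eosinophil cationic protein, fell by 0.45 (0.00311), and EMR1, an adhesion receptor, fell by 1.45 (0.00328). CCR3, the eotaxin receptor, rose by 1.04 (0.0239) from 1.16 to 2.39 CPM, a call that ended without CTRL replicate 2 and without RBM5 OE replicate 2 or 3 (adjusted p up to 0.0802). Of the 31-base stretches of RNASE3, 12.2% are shared with RNASE2, so that their reads are divided in part by estimate, and neither gene is expressed in eosinophils alone. In RBM5 KO edgeR called 0 of 6, with 1 at an unadjusted p under 0.05, and DESeq2 and limma-voom also called 0. Without both libraries that stood apart, as without RBM5 KO replicate 1 alone, EMR1 was called higher (1.05, adjusted p = 0.00038 without both, against 0.82 and 0.382 with all 6). The gene at an unadjusted p under 0.05 was PTGDR2, a prostaglandin D2 receptor, with 9 counts over CTRL and 44 over RBM5 KO, a log2 fold change of 2.17 (0.72) and an adjusted p of 0.168. RNASE2 and RNASE3 had values of 0.13 (adjusted p = 0.664) and 0.01 (0.987) in RBM5 KO, and the list median was 0.07. The eosinophil receptors IL5RA and SIGLEC8 had at most 2 counts in any group.

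Of 18 other basophil and mast cell genes, 9 were tested. In RBM5 OE 3 of 9 rose and 0 fell by edgeR, where 19.8% and 20.2% of all genes did, with 1 lower at an unadjusted p under 0.05 (FCER1G, -0.28) and 0 lower by DESeq2 or limma-voom. KIT, the stem cell factor receptor, rose by 1.44 (adjusted p = 0.00445) from 0.63 to 1.71 CPM, LTC4S, the leukotriene C4 synthase, rose by 0.77 (0.000781), and SIGLEC6 rose by 0.60 (0.000561). Each of these 3 calls held in all 14 alternatives, and the list median was 0.45. In RBM5 KO edgeR called 0 of the 9, with 2 higher and 1 lower at an unadjusted p under 0.05, limma-voom called 0, and DESeq2 called 1 higher. TPSAB1, a mast cell tryptase, had a value of 2.62 (0.84) in RBM5 KO with an adjusted p of 0.158, and 44.4% of its 101-base stretches are shared with TPSB2, so that these counts are uncertain. Without both libraries that stood apart, and also without RBM5 KO replicate 1 alone, TPSAB1, TPSB2 and the histamine receptor gene HRH4 were called higher in RBM5 KO, and the list median in the fit of all 6 libraries was 0.17. MS4A2, the IgE receptor beta chain, had at most 3 counts in a group, and IL4 and MRGPRX2 were at 0.

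**Figure D5:**
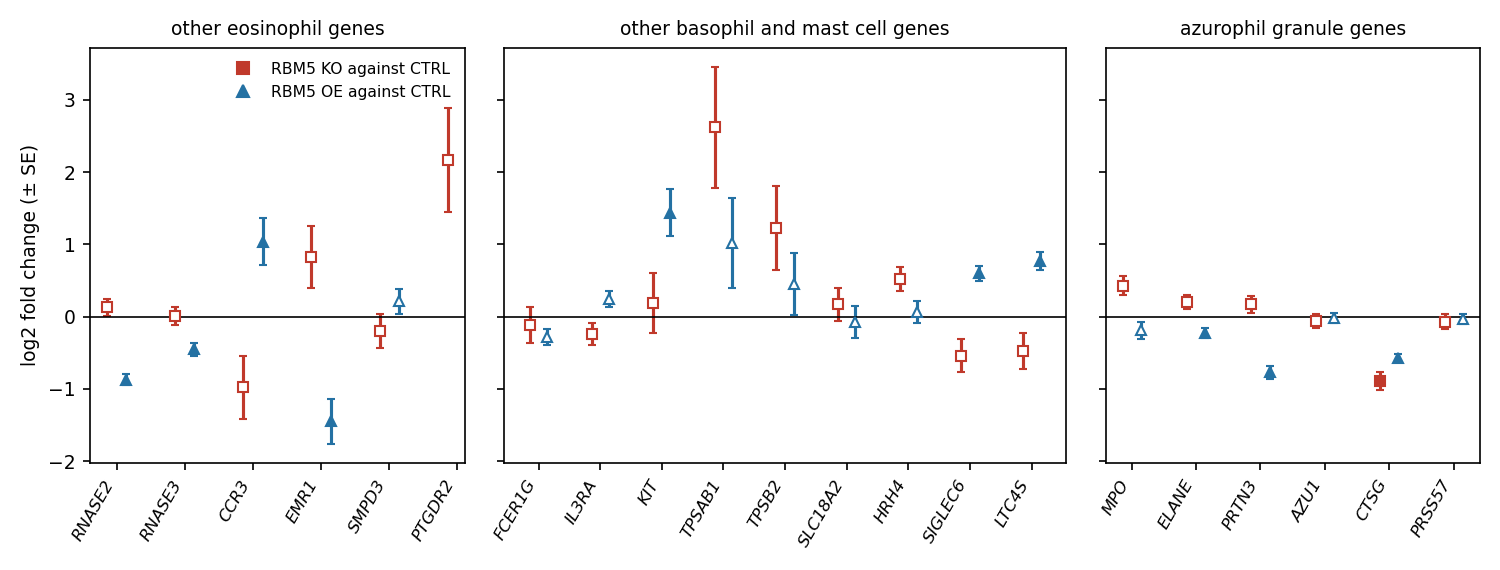
Log2 fold change against CTRL with its standard error for the tested genes of 3 lists, as squares for RBM5 KO and triangles for RBM5 OE, filled where edgeR's adjusted p was under 0.05. In RBM5 KO the only filled point is CTSG at -0.89, while in RBM5 OE RNASE2, RNASE3, EMR1, PRTN3, CTSG and ELANE lie below 0 and CCR3, KIT, SIGLEC6 and LTC4S above it.

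Of the receptors for cytokines of these lineages, 5 of 7 were tested. CSF2RA, the GM-CSF receptor alpha chain, rose by 0.54 (adjusted p = 0.000452 by edgeR) in RBM5 OE, as did KIT, and 0 fell, also at an unadjusted p under 0.05 and by DESeq2. CSF2RA and IL3RA each had 2 rows with the same symbol, of which 1 was read, so that their CPM may be below the full level. In RBM5 KO edgeR called 0 of the 5, with 0 at an unadjusted p under 0.05 and 0 by DESeq2 and limma-voom. CSF2RB, the chain shared by the receptors of IL-3, IL-5 and GM-CSF, had log2 fold changes of 0.03 (standard error 0.16) in RBM5 KO and 0.09 (0.09) in RBM5 OE.

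Among 9 transcription factors of granulocyte fate, 8 were tested. In RBM5 OE, CEBPA, a factor of granulocyte commitment, fell by 0.27 (adjusted p = 0.00471 by edgeR), IKZF1, or Ikaros, fell by 0.40 (0.000807) and SPI1, or PU.1, rose by 0.19 (0.0463), the last in 6 of 14 alternatives. In RBM5 KO, XBP1, a factor of the unfolded protein response that eosinophils need, fell by 0.60 (adjusted p = 0.0479), a call that held in 8 of 15 alternatives and ended without CTRL replicate 1 or 2, without RBM5 KO replicate 2 or 3, by limma-voom, on the TPM scale and with the replicate block. No gene of the list rose there by edgeR, at an unadjusted p under 0.05, or by DESeq2. CEBPE, a factor of granule genes, was at 1.72 CPM in CTRL and 3.05 in RBM5 KO (adjusted p = 0.361), and was called higher without both libraries that stood apart (0.96, adjusted p = 0.0322). The list median was -0.06 in RBM5 OE and -0.01 in RBM5 KO.

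The granule genes of the azurophil type gave a comparison. In CPM, which do not account for length, MPO averaged 89.2 in CTRL, below RNASE2 (366) and PRG2 (135). In CTRL the 10 other eosinophil genes summed to 854 to 991 TPM. Most of that sum was RNASE2, and without it the rest summed to 75.7 to 90.2 TPM. The 6 azurophil genes summed to 13180 to 14452 TPM in CTRL, 13144 to 14653 in RBM5 KO against 10857 to 11506 in RBM5 OE. In RBM5 KO 1 of 6 fell, the protease CTSG, by 0.89 (adjusted p = 0.00968 by edgeR), a call that ended without CTRL replicate 1 or 2 (up to 0.0668), and none rose by edgeR or limma-voom, with 1 higher at an unadjusted p under 0.05 and 1 by DESeq2 and without both libraries that stood apart (MPO). In RBM5 OE PRTN3 fell by 0.77 (adjusted p = 6.39e-05), CTSG by 0.57 (4.63e-05) and ELANE by 0.22 (0.0316), of which the last held in 8 of 14 alternatives. The list medians were 0.05 in RBM5 KO and -0.20 in RBM5 OE.

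In the MS4A family, 4 relatives of MS4A3 were tested. MS4A7 rose by 1.29 (adjusted p = 1.71e-06 by edgeR) in RBM5 OE, from 38.6 to 94.2 CPM, MS4A14 by 0.83 (0.00293) and MS4A4A by 0.80 (0.00151), in all alternatives, while MS4A6A had a value of -0.05 (0.801). In RBM5 KO edgeR called 0 of the 4, with 1 higher at an unadjusted p under 0.05 (MS4A14, 0.56) and 0 by DESeq2 and limma-voom, and without both libraries that stood apart MS4A7 (0.38, adjusted p = 0.0178) and MS4A14 (0.50, 0.0419) were called higher. The list median was 0.82 in RBM5 OE and 0.00 in RBM5 KO.

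Markers of monocytes were called in both comparisons, in both directions in RBM5 OE. Their summed level was 1310.1 to 1474 TPM in CTRL, 2104 to 2433 in RBM5 KO against 612 to 647 in RBM5 OE, with all 11 markers read. Most of that sum was LYZ, lysozyme, and without it the other 10 summed to 195 to 231 TPM in CTRL, 240 to 363 in RBM5 KO and 131 to 149 TPM in RBM5 OE. In RBM5 KO 4 of 9 tested markers rose (LYZ, VCAN, MNDA and S100A9). VCAN rose by 2.49 (adjusted p = 0.00533 by edgeR) and MNDA by 1.1 (0.00332), both in all 15 alternatives. LYZ rose by 0.76 (0.00524, ended without CTRL replicate 1 at 0.0576) and S100A9 by 1.09 (0.0479, kept in 7 of 15 alternatives). CSF1R was at 0.00 and FCGR1A at 0.10. CD14 averaged 1.4 CPM in CTRL and 5.59 in RBM5 KO (adjusted p = 0.0585 by edgeR, called higher in 5 of 15 alternatives). ITGAM averaged 40.1 and 62.3 CPM (adjusted p = 0.318, called higher in 2 of 15). CD14 and ITGAM were among the 7 of 9 called higher without both libraries that stood apart. None fell by edgeR, at an unadjusted p under 0.05, or by DESeq2, and the list median was 0.76. In RBM5 OE 6 of 9 fell, among them LYZ, by 1.29 (adjusted p = 4.3e-07), and S100A8, by 2.26 (9.49e-06). S100A9 fell by 1.97 (2.62e-05) and MNDA by 0.91 (0.000722), and the list median was -0.91. In the same comparison CD14 rose by 1.05 (adjusted p = 0.0225), a call that ended in 4 of 14 alternatives (without RBM5 OE replicate 1 or 3, on the TPM scale and with all 9 libraries in 1 fit, up to 0.0966), and ITGAM rose by 0.62 (0.00386), which ended with all 9 libraries in 1 fit (0.0964). The part of these markers in the values of GATA2 was not tested. Of the 8 neutrophil markers 2 passed the filter, CSF3R and CXCR2, and edgeR called 0 of them in either comparison, with 1 at an unadjusted p under 0.05 in RBM5 KO and 0 by DESeq2. Without both libraries that stood apart CXCR2 was called higher in RBM5 KO (0.40, adjusted p = 0.0303 by edgeR). Of the 5 tested megakaryocyte markers only NFE2 was called, with a fall of 0.69 (adjusted p = 9.13e-05 by edgeR) in RBM5 OE, and the 1 tested erythroid marker, EPOR, rose there by 0.34 (0.0217), a call that ended without CTRL replicate 1 or 2 and without RBM5 OE replicate 1 or 2 (up to 0.1). Of 6 lymphoid markers 3 were tested and 0 were called in either comparison by edgeR, at an unadjusted p under 0.05 or by DESeq2.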

How the data were processed

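RNA was depleted of ribosomal RNA and read in pairs. Per the labels, the authors used Trim Galore for trimming, STAR 2.7.1a for alignment to hg19 (GRCh37), GATK 4.1.2.0 to mark duplicates, and RSEM without strand to quantify genes. The deposited expected count values are unscaled RSEM estimates, and the deposited TPM values were scaled by the authors for length and library. Spike-in entries (92, all at 0) were dropped. The members and lists were chosen with earlier results of these data known.

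After rounding, edgeR 4.0.16 in R 4.3.3 (filterByExpr, TMM, quasi-likelihood test) was fitted to the 6 libraries of each comparison with CTRL. Benjamini-Hochberg adjustment covered 14370 genes (RBM5 OE) or 14218 (RBM5 KO), and calls needed an adjusted p under 0.05. This replaces DESeq2, which the labels name. Standard errors come from the quasi-likelihood F. The p-values measure the spread between these replicates. Levels are CPM scaled over 9 libraries, and log2 CPM has a prior count of 2. Named were all members, per list up to 4 genes with the smallest p and all calls if few, the 5 genes most like GATA2, PRG2 and EPX, and neighbours within 100 kb (GENCODE v44 lifted to GRCh37).

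Alternatives were DESeq2 1.42.0, limma-voom, limma 3.58.1 on log2(TPM + 1), RLE scaling, no filter, a filter of 1 CPM in 3 libraries, a joint fit of the 9 libraries, a replicate block and left-out libraries. The fits were checked on simulated counts.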

Additional observations from a re-analysis of the deposited data

How the results depend on the processing

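GATA2 kept its fall in RBM5 OE in all 14 alternatives. GATA2, PRG2 and EPX had positive log2 fold changes in RBM5 KO in all 15, but they were chosen by that rise, so nothing is read from this. The number of members called in RBM5 OE was 2, became 4 with no filter on low counts, was 1 with all 9 libraries in 1 fit, with log2(TPM + 1) and with the replicate block, and ranged from 1 to 2 without 1 library. Genes called in RBM5 OE numbered 2847 higher (2048 to 3044 without 1 library) and 2909 lower (2136 to 3117), with 1771 lower on log2(TPM + 1). Genes called in RBM5 KO numbered 119 higher and 238 lower, and these counts became 342 and 456 with DESeq2, 378 and 513 with all 9 libraries in 1 fit, 27 and 82 on log2(TPM + 1), and 45 and 109 with the replicate block, with 69 higher by limma-voom and 264 higher with no filter. Without 1 library they ranged from 9 to 565 higher and from 18 to 549 lower, the lowest without CTRL replicate 1 and the highest without RBM5 KO replicate 1, and without both libraries that stood apart they were 998 and 961. The cause of these shifts was not tested.

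Deviations from the group means correlated at -0.20 to 0.12 for equal replicate numbers in RBM5 KO and at -0.04 to 0.02 in RBM5 OE. The highest value was 0.32, between CTRL replicate 3 and RBM5 KO replicate 1, which stood apart. These values gave no sign of pairing by number, but cannot tell whether cultures with equal numbers were handled together. With 3 libraries per group the depth limits PRG3, HDC, FCER1A, CLC, GATA1 and CPA3 to statements on counts. Leaving out both libraries that stood apart changes only CTRL replicate 3 in RBM5 OE.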
